A study of Mus musculus with 38 samples.

Results

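Naive CD4 T cells that overexpress the miR-17~92 microRNA cluster were compared with naive wild-type cells, using 8 of the 38 libraries of the series, 4 per genotype. Members were taken by the genotype and state of each library. The transgenic genotype, T1792tg/tg in the labels (T1792tg here), carries CD4cre and a CAG-driven miR-17~92 transgene in the Rosa26 locus behind a loxP-flanked STOP cassette. The Cre recombinase removes that cassette in cells that express or have expressed CD4. The control genotype is labelled wt and carries neither. Each library came from pooled lymph nodes and spleen of a single mouse, male or female, whose naive CD4 T cells were enriched with a StemCell naive cell kit and lysed without stimulation. Ages were not given in the labels. No genotype carried CD4cre alone, so effects of Cre, of the mouse line and of the transgene cannot be told apart in this comparison. A second pair of naive groups is labelled CD28-/- throughout: mice with that knockout alone (4 libraries, called CD28ko-labelled here) and rescue mice (3 libraries), which add the same CD4cre and transgene. That pair shares no library with the main one. Levels in naive T1792Δ/Δ cells (CD4cre with a floxed, deleted cluster, 4 libraries) and in wt and T1792tg cells stimulated for 24 h with anti-CD3, anti-CD28 and interleukin-2 (4 libraries each) are given as values where they help place a gene.

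MicroRNAs are short RNAs that guide Argonaute proteins to messenger RNAs. Pairing of the seed, bases 2 to 8 of the microRNA, with a site in the 3′ untranslated region (UTR) usually lowers the level or translation of the message. The miR-17~92 cluster is transcribed as a single precursor in lymphocytes, is induced when T cells are activated, and is known for promoting their proliferation and survival. Naive T cells in turn hold a program of quiescence and recirculation that depends on Foxo and Klf transcription factors, interleukin-7 and sphingosine-1-phosphate.

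The cluster encodes 6 main mature microRNAs on mouse chromosome 14, plus strand, which fall into 4 families by seed. All 6 matched in the RefSeq table (GRCm38.p6). They are printed 5′ to 3′ because the seeds, in capitals, decide which messages can be matched. The first pair below shares a seed, and so do miR-19a-3p and miR-19b-3p.
miR-17-5p: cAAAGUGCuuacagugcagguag
miR-20a-5p: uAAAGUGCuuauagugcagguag
miR-18a-5p: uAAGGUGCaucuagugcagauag
miR-19a-3p: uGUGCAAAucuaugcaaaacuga
miR-19b-3p: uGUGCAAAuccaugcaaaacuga
miR-92a-3p: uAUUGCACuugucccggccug
The complementary heptamers searched in messages were GCACTTT for miR-17-5p and miR-20a-5p, GCACCTT for miR-18a-5p, TTTGCAC for miR-19a-3p and miR-19b-3p, and GTGCAAT for miR-92a-3p. Mature microRNAs were not measured in these polyA RNA libraries, so only precursor and host transcripts can be read.

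Sites in named messages are shown next, because the results on seed matches turn on such stretches. Each is 1 match followed by an A, with its flanks, in the longest annotated 3′ UTR (GENCODE M21, GRCm38), on the strand of the gene, with the heptamer in capitals. Rcan3 (a calcineurin regulator), Tgfbr2 (a TGF-beta receptor), Rbl2 (a pocket protein that restrains the cell cycle) and Nacc2 (a transcriptional repressor) carry the miR-17 family heptamer.
Rcan3, chr4:135416224-135416250, minus strand: attctcaatgGCACTTTaagtgacaag
Tgfbr2, chr9:116090064-116090090, minus strand: aataacgtttGCACTTTattaatgcct
Rbl2, chr8:91123141-91123167, plus strand: gtaattggtgGCACTTTatggctgtaa
Nacc2, chr2:26057860-26057886, minus strand: acccaaatttGCACTTTaatttgacca
Zbtb4 (a transcriptional repressor) carries the miR-18a heptamer, Il7r (the interleukin-7 receptor chain) and S1pr1 (the receptor for sphingosine-1-phosphate) that of miR-19, and Tgif1 (a repressor of SMAD-driven transcription) that of miR-92a.
Zbtb4, chr11:69780518-69780544, plus strand: ctccaaaataGCACCTTataccccatc
Il7r, chr15:9507678-9507704, minus strand: ctcagaagcaTTTGCACaaagcaggaa
S1pr1, chr3:115710471-115710497, minus strand: tgtggatcatTTTGCACatagctttat
Tgif1, chr17:70844377-70844403, minus strand: ttccaagactGTGCAATactttagacg
Bcl2l11, which encodes the death factor Bim, also carries the miR-17 family heptamer, but its message was not called different, as described below.
Bcl2l11, chr2:128160442-128160468, plus strand: cccgactggaGCACTTTactgtctcag
In Tgfbr2 and Nacc2 the printed miR-17 family match overlaps a miR-19 match that starts 3 bases earlier.

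Depth and identity of the libraries were read first. The total count, in units of 1000000, ran between 21.1 and 24.6 over the wild-type libraries and between 20.1 and 24.98 over the T1792tg libraries. Levels are counts per 1000000 on scaled library sizes (CPM, mean ± SD), and differences are log2 fold changes ± SE, T1792tg over wild-type, with n = 4 per group. CD4 T cell markers were high in all libraries, with Cd3e at 391 ± 36.5 CPM in wild-type and 351 ± 15.1 CPM in T1792tg. Cd4, the gene whose regulatory sequence drives the Cre, had 972 ± 125 and 968 ± 103 CPM and was not called different (adjusted p = 0.98). The 13 CD4 T cell markers summed to 9496 to 10610 CPM in wild-type and 8093 to 9506 CPM in T1792tg libraries, with 5 of them called lower and 1 higher. Over all genes tested, 12.6% were lower and 10.5% higher. The summed level of 13 B cell markers ran from 515 to 944 CPM in wild-type and from 902 to 1352 CPM in T1792tg libraries. The 22 myeloid markers summed to 197 to 272 and 221 to 315 CPM, the 10 NK markers to 70.8 to 89.1 and 78.2 to 144 CPM, and the 6 CD8 T cell markers to 159 to 195 and 181 to 230 CPM. None of these lists had a member at 0 in all libraries of a group. The 8 red cell and platelet markers summed to 354 to 1020 CPM in wild-type and 114 to 532 CPM in T1792tg. Read from Xist and Y-linked genes, 3 of 4 wild-type and 1 of 4 T1792tg mice were female, so sex partly moves with genotype. Fits with a term for sex are given for a part of the results only.

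The precursors of the cluster and the Rosa26 transcript were higher in T1792tg cells. Mir17, the precursor gene of miR-17 (chromosome 14:115043671-115043754, GRCm38.p6), had 0.441, 0.206, 0.335 and 0.356 CPM in wild-type libraries 1 to 4 and 5.78, 6.28, 6.29 and 7.85 CPM in T1792tg libraries 1 to 4. The groups did not overlap, and the log2 fold change was 4.29 ± 0.34 (adjusted p = 1.4e-10). Mir18 went from 0.402 ± 0.117 to 6.96 ± 1.44 CPM (4.11 ± 0.32, adjusted p = 1.3e-10). Mir20a went from 0.245 ± 0.0874 to 3.22 ± 0.944 CPM (3.67 ± 0.44, adjusted p = 2.6e-07). These precursors rose in every T1792tg library relative to every wild-type library. Mir17hg, the host transcript, is annotated next to Mir17 (chromosome 14:115044390-115046728) and does not overlap it. It had 41.1, 53.7, 53.9 and 57.8 CPM in wild-type and 82.4, 106, 101 and 97.2 CPM in T1792tg libraries, again without overlap (0.90 ± 0.13, adjusted p = 2.5e-06). The precursor rows had larger log2 fold changes than the host transcript row. Naive rescue cells had 6.88 CPM and naive T1792Δ/Δ cells 0.0641 CPM of Mir17, while Mir17hg stood at 54.4 ± 7.88 CPM in T1792Δ/Δ cells, inside the wild-type range. After 24 h of stimulation Mir17 had 0.131 CPM in wild-type and 0.624 CPM in T1792tg cells, and Mir17hg had 20.7 and 34.7 CPM. Gt(ROSA)26Sor, the transcript of the targeted Rosa26 locus (chromosome 6:113067428-113077244), rose from 0.215 ± 0.101 to 0.676 ± 0.147 CPM (1.63 ± 0.40, adjusted p = 0.0031). It had 13.6 ± 1.4 CPM in naive T1792Δ/Δ cells, whose label names no transgene in Rosa26.

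Gh, the growth hormone gene, showed the highest fold change of the named genes. It had 0.049, 0.33, 0.209 and 0 CPM in wild-type libraries and 23, 29.7, 33.1 and 17.5 CPM in T1792tg libraries (7.31 ± 0.40, adjusted p = 3.3e-15). Its level followed the CD4cre label rather than the transgene label: it was 34.8 CPM in naive T1792Δ/Δ and 25.4 CPM in naive rescue cells, and 0.149 CPM in naive CD28ko-labelled cells. Cd28, which encodes the costimulatory receptor, fell from 825 ± 86.8 to 530 ± 148 CPM (-0.64 ± 0.14, adjusted p = 0.0011), with T1792tg library 2, at 722 CPM, inside the wild-type range of 716 to 926 CPM. The CD28ko-labelled libraries had 737 ± 135 CPM of Cd28 (n = 4) and the rescue libraries 574 ± 64.8 CPM (n = 3), so the gene count does not show the labelled knockout, and which part of Cd28 is deleted is not given in the sources used here.

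Across all genes the difference was broad and mostly small. Of 13650 genes tested, 3158 were called at an adjusted p below 0.05 (23.1%), of which 1439 were higher (10.5%) and 1719 lower (12.6%) in T1792tg cells. Among called genes 208 were higher and 84 lower by more than 1 on the log2 scale, 34 and 8 by more than 2, and the median size was 0.374. In 1231 genes all T1792tg libraries lay above all wild-type libraries (9.02%), and in 1499 they lay below (11%). The count was 1913 when only the 8 libraries of the comparison were fitted and 1563 when only naive libraries were fitted with a term for sex. With only the naive libraries fitted, and no term for sex, it was 2219. Nothing in the labels says that the mice were litter-matched. The spread behind the p-values was estimated over all 38 libraries of the 10 groups, stimulated ones included, not from these 8 mice alone. Same-numbered naive and stimulated libraries had the same sex by their counts and were fitted as independent. Whether they came from the same mice was not tested.

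**Figure D1:**
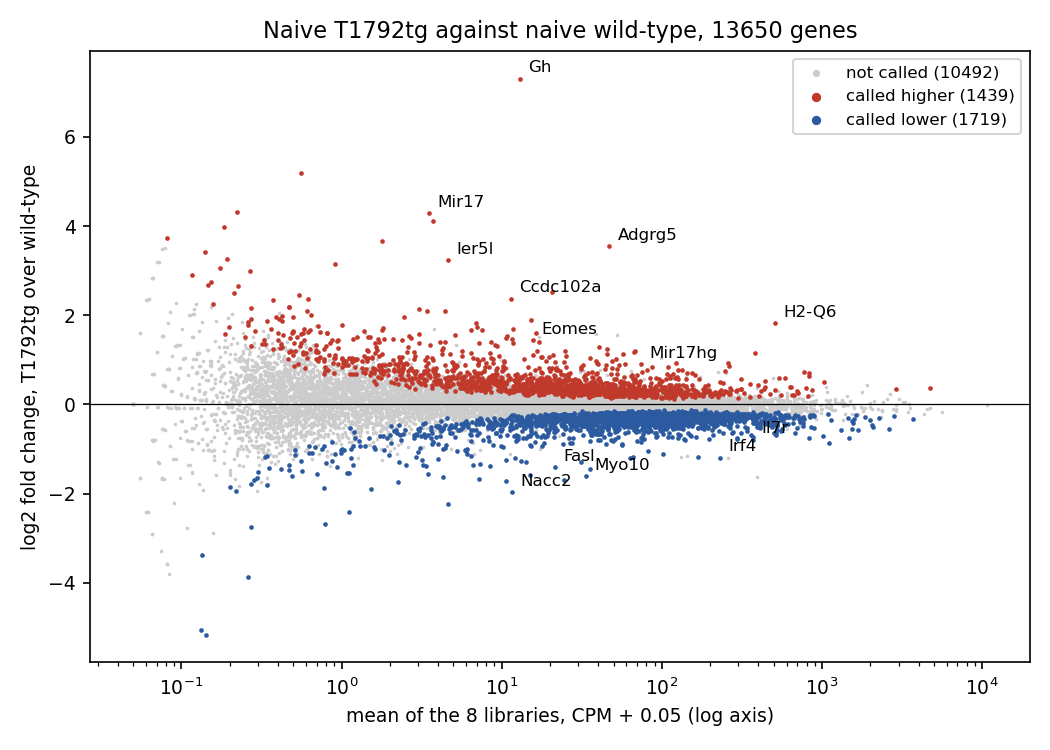
Log2 fold change of T1792tg over wild-type naive cells against the mean level of the 8 libraries (CPM plus 0.05, log axis), 1 point per gene. Called genes (1439 higher in red, 1719 lower in blue) crowd between 0 and 1 in size on either side, while Gh (7.31), Mir17 (4.29) and Adgrg5 (3.55) stand far above.

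A pair of neighbouring genes, Adgrg5 and Ccdc102a, was among the 15 largest increases taken by the naming rule. Adgrg5, an adhesion G protein-coupled receptor (chromosome 8:94921811-94943293), had 5.53, 10.3, 8.07 and 5.29 CPM in wild-type and 54.9, 90.7, 105 and 93.6 CPM in T1792tg libraries. The lowest T1792tg library was thus several times above the highest wild-type library (3.55 ± 0.22, adjusted p = 6.6e-14). Ccdc102a, the next gene on that chromosome (94902869-94918098), went from 3.67 ± 1.01 to 19.1 ± 3.06 CPM (2.37 ± 0.16, adjusted p = 9.6e-13). The further neighbours Adgrg1 (0.53 ± 0.30, adjusted p = 0.21), Adgrg3 (-0.38 ± 0.17, adjusted p = 0.11) and Dok4 (0.44 ± 0.22, adjusted p = 0.16) were not called. Both Adgrg5 and Ccdc102a were also high in rescue cells, at 65.8 and 18 CPM against 6.79 and 3.31 CPM in CD28ko-labelled cells, and stood at 3.3 and 1.6 CPM in T1792Δ/Δ cells. Ier5l, an immediate-early response gene family member, went from 0.876 ± 0.259 to 8.21 ± 2.5 CPM (3.23 ± 0.31, adjusted p = 1.4e-09).

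The other large increases were of mixed function. Bmp7, a secreted ligand of the BMP family, rose from 1.64 ± 0.427 to 7.1 ± 0.89 CPM (2.10 ± 0.19). Gpr55, a lysophospholipid receptor, rose from 1.28 ± 0.405 to 5.46 ± 0.358 CPM (2.09 ± 0.26). Dntt, the terminal transferase of developing lymphocytes, had 7.15, 4.95, 5.94 and 7.88 CPM in wild-type and 19.1, 19, 24.5 and 33.5 CPM in T1792tg libraries (1.90 ± 0.25, adjusted p = 8.5e-07). Cap2, an actin-binding protein (1.83 ± 0.36), Arrdc4, an arrestin-domain protein (1.74 ± 0.25), Baiap3 (1.69 ± 0.23), Spock2 (1.66 ± 0.21) and Cpq (1.66 ± 0.25) completed the set, and the groups did not overlap for any of them. H2-Q6, a nonclassical class I gene of the Qa-2 group, had 198 to 236 CPM in wild-type and 694 to 877 CPM in T1792tg libraries (1.82 ± 0.16, adjusted p = 2.8e-10). Its near-identical relatives moved with it: H2-Q8 (1.14 ± 0.11), H2-Q5 (0.85 ± 0.10) and H2-Q7 (0.72 ± 0.11) were called higher. Reads can be split between these copies in a way the sources do not state, so the size for each copy is uncertain. The classical class I gene H2-K1 rose by less (0.36 ± 0.07, adjusted p = 0.00029), and H2-D1 was not called (0.13 ± 0.06, adjusted p = 0.13).

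The largest decreases taken by the naming rule included messages with and without seed matches. The 8 genes called lower by more than 2 on the log2 scale did not pass that rule. Of all tested genes with a UTR, 32.8% held a match of any family. Nacc2 had 21.6, 14.3, 18.2 and 19.9 CPM in wild-type and 4.74, 5.58, 4.54 and 4.11 CPM in T1792tg libraries (-1.96 ± 0.17, adjusted p = 1.5e-10). It holds 3 seed matches, among them the miR-17 family site printed above. Myo10, an unconventional myosin with 1 match, went from 50.6 ± 4.83 to 16.6 ± 3.55 CPM (-1.61 ± 0.13, adjusted p = 7.4e-11). Pdlim4, a cytoskeletal adaptor with no match, went from 37.6 ± 5.47 to 11.5 ± 0.152 CPM (-1.70 ± 0.13, adjusted p = 3.7e-11). A large decrease was thus seen with and without a match. P2ry14, Dnajc6, L1cam, Itga7, Wscd2 and Ddr1, given next, held no match either. Galnt9 (-1.71 ± 0.19), P2ry14 (-1.67 ± 0.25), Dnajc6 (-1.63 ± 0.28) and Tnfsf11, the ligand RANKL (-1.59 ± 0.24), also fell. L1cam, an adhesion molecule (-1.44 ± 0.16), Itga7 (-1.39 ± 0.42), Map3k9 (-1.37 ± 0.20), Wscd2 (-1.33 ± 0.17), Rgmb (-1.29 ± 0.15), Abcb9 (-1.29 ± 0.11) and Ddr1 (-1.24 ± 0.12) were lower too, without overlap between the groups. The call of Itga7 was lost without T1792tg library 3 (adjusted p = 0.051). Several of these messages stood above the wild-type level in T1792Δ/Δ cells, as Abcb9 at 66.5 against 44.2 CPM, Pdlim4 at 61.4 against 37.6 CPM and Itga7 at 33.7 against 12.1 CPM. Others stood near it, as P2ry14 at 10.5 against 10.9 CPM, Rgmb at 18.3 against 20.2 CPM and Galnt9 at 17.2 against 16.3 CPM. The comparison of T1792Δ/Δ with wild-type cells shares the wild-type libraries and was not tested here.

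**Figure D2:**
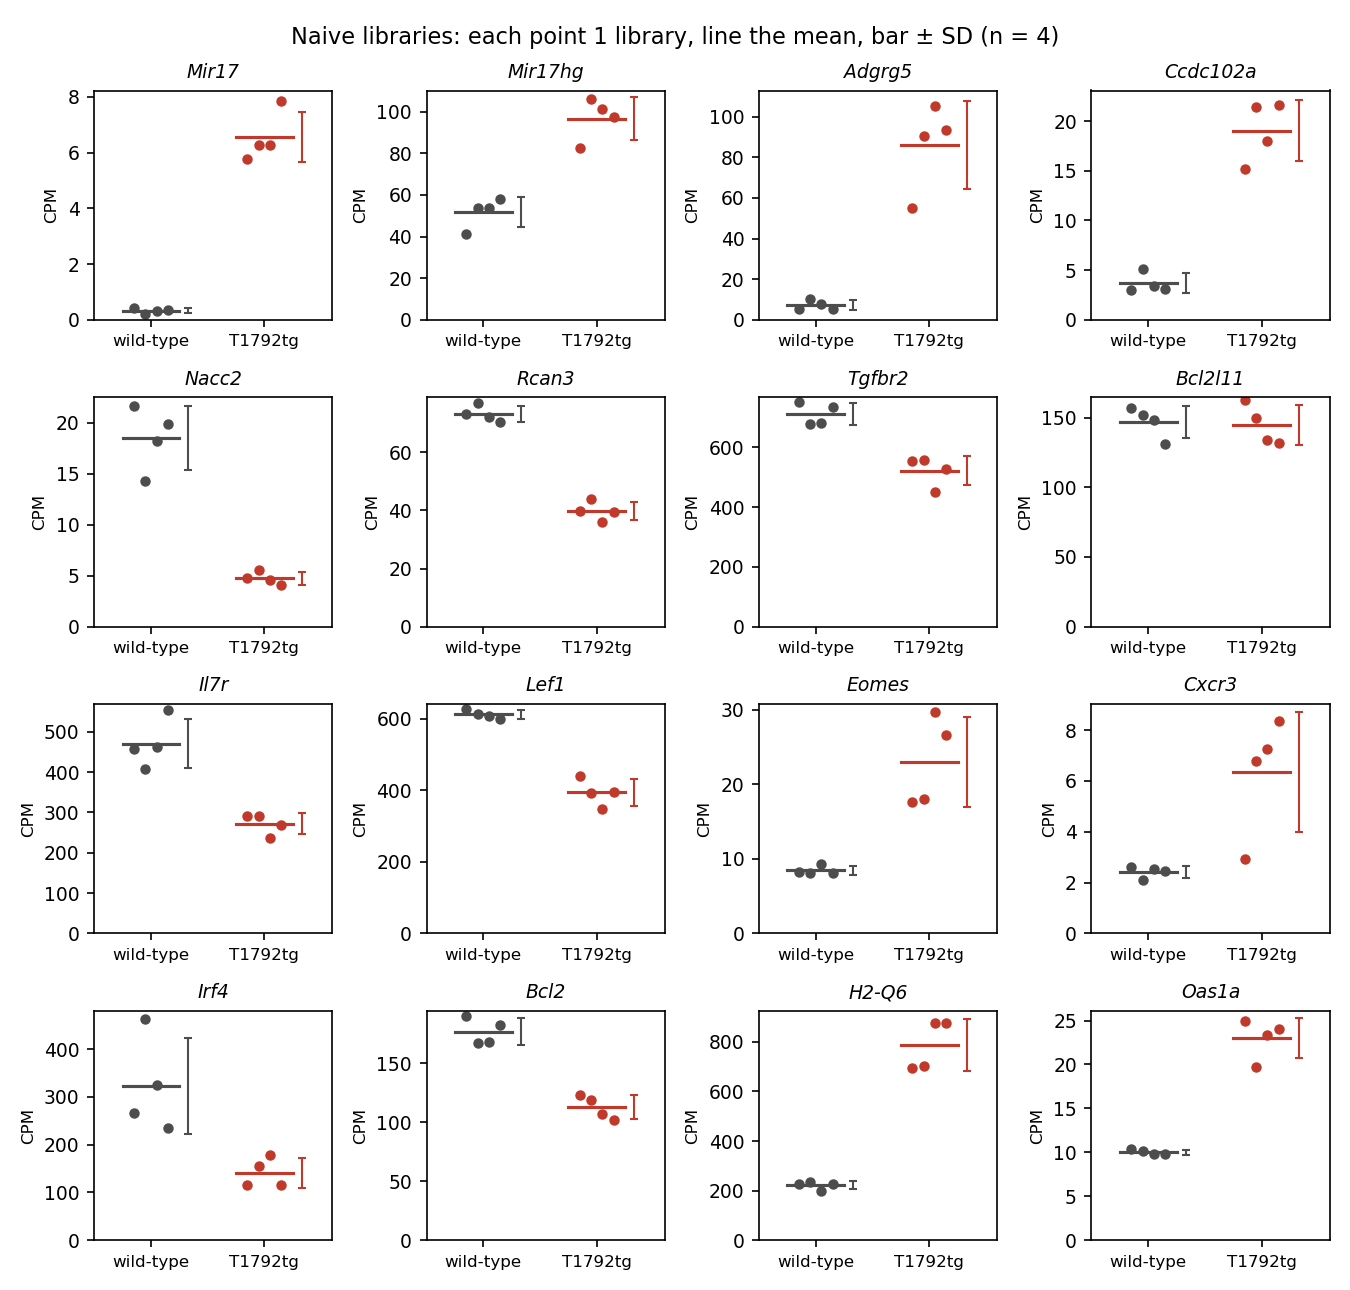
Levels of 16 genes in naive wild-type (grey) and T1792tg (red) libraries, in CPM on axes that start at 0; points are libraries, lines means and bars ± SD (n = 4). Groups are separate for 15 of the 16 genes, and Bcl2l11 overlaps.

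The list of published targets of the cluster was chosen with earlier results of these data known, so its counts are descriptions. Of its 21 genes, 8 were called lower and 1 higher, where 12.6% and 10.5% of all genes were. Their median was -0.046, against 0.009 over all genes, and it was -0.13 without wild-type library 3 and -0.105 without wild-type library 2. Rcan3 had 73.1, 76.9, 72 and 70.4 CPM in wild-type and 39.9, 43.8, 36 and 39.3 CPM in T1792tg libraries (-0.88 ± 0.08, adjusted p = 3.4e-10). Hif1a, the hypoxia factor, fell from 246 ± 22.3 to 174 ± 8.19 CPM (-0.50 ± 0.09, adjusted p = 5.6e-05). Rbl2 fell from 112 ± 7.9 to 79.7 ± 10.2 CPM (-0.49 ± 0.08) and Tgfbr2 from 711 ± 37.7 to 522 ± 49.4 CPM (-0.45 ± 0.08). The tumour suppressor deubiquitinase gene Cyld (-0.28 ± 0.06), Zbtb4 (-0.44 ± 0.11), Thbs1 (-1.12 ± 0.31) and E2f1 (-0.50 ± 0.11) were the other members called lower. E2f2, a relative of E2f1 with 3 seed matches, was the member called higher (0.48 ± 0.13, adjusted p = 0.0074). When the 8 libraries were fitted alone, neither E2f1 (adjusted p = 0.12) nor E2f2 (adjusted p = 0.059) was called. In naive libraries with a term for sex, 6 of the 21 targets were lower and 2 higher.

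Not every published target was called. Bcl2l11 had 157, 152, 148 and 131 CPM in wild-type and 163, 150, 134 and 132 CPM in T1792tg libraries, which overlap (-0.02 ± 0.10, adjusted p = 0.9). The phosphatase Phlpp2 had 9.77 ± 2.35 and 10.3 ± 0.976 CPM (0.07 ± 0.13, adjusted p = 0.75). Protein levels were not measured, and a p above the threshold does not show that these levels were equal. Bcl2, the survival gene, fell from 177 ± 11.5 to 113 ± 10.1 CPM (-0.65 ± 0.08, adjusted p = 3.5e-07) and stood at 266 CPM in T1792Δ/Δ cells. Fasl, the ligand that triggers death through Fas, had 28.8 to 34.4 CPM in wild-type and 7.77 to 14.8 CPM in T1792tg libraries (-1.40 ± 0.14, adjusted p = 7.8e-09). Of the 27 apoptosis genes 6 were higher and 3 lower, with 5 lower without T1792tg library 3 and 2 higher in naive libraries with a term for sex, beside 10.5% and 12.6% of all genes. Of 26 PI3K and mTOR regulators 2 were higher and 4 lower, which is near those shares, and 0 were higher without wild-type library 2. Of 18 calcineurin and NFAT genes 1 was higher and 7 lower, among them Nfatc2 (-0.45 ± 0.09), a transcription factor that calcineurin activates. The lower counts of the PI3K and calcineurin lists were 2 and 4 without T1792tg library 3, and 2 and 4 when the 8 libraries were fitted alone. The calcineurin count was 2 in naive libraries with a term for sex, and the PI3K list had 1 higher and 1 lower there.

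Of 22 genes of the TGF-beta pathway tested, 10 were called lower and 0 higher by edgeR (11 lower and 1 higher at an unadjusted p below 0.05, 10 and 0 by DESeq2), with a median of -0.203. Over all genes 12.6% were lower and 10.5% higher. Tgfbr2 and Acvr1b, the activin receptor chain (51.1 ± 5.28 to 33.6 ± 3.18 CPM, -0.60 ± 0.11), are receptors. Tgif1, a repressor of SMAD output, had 126 to 180 CPM in wild-type and 71.5 to 98.5 CPM in T1792tg libraries (-0.73 ± 0.09, adjusted p = 4.3e-07). Smurf1, a ubiquitin ligase that limits the pathway, fell from 98.7 ± 10.6 to 70.2 ± 3.4 CPM (-0.49 ± 0.08). The list thus held activators and inhibitors among the genes that fell. The list had 5 lower genes when the 8 libraries were fitted alone and 6 in naive libraries with a term for sex.

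Genes with seed matches in their 3′ UTRs were called lower in larger shares than genes without. Of the 12666 tested genes with an annotated UTR of at least 30 bases, 13.2% were called lower and 10.9% higher. Matches were sought on the transcript strand only. Of these genes, 14.2% held GCACTTT, 9.19% GCACCTT, 12.8% TTTGCAC and 7.37% GTGCAAT. Among the 8512 genes without any match 9.99% were lower and 12.5% higher, with a median log2 fold change of 0.039. With 1 match 17.6% were lower, with 2 matches 22.5%, with 3 matches 27.8% and with 4 or more 25.6%. The share called higher went down over the same classes, from 12.5% to 8.11%, 6.84%, 6.02% and 3.98%. Genes with matches have longer UTRs, with a median of 782 bases without a match and 4904 bases with 4 or more. Within UTRs of 1148 to 2251 bases, 11.8% of 1952 genes without a match and 22.2% of 1216 genes with a match were lower. In UTRs of 30 to 491 bases the shares were 7.25% of 2967 and 14.5% of 200 genes. In UTRs of 2252 bases or more they were 13.5% of 1111 and 19.2% of 2056 genes. Genes are not independent replicates, so these shares are descriptions.

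The families differed in their shares. Among genes that matched a single family, 20.4% of 1023 with the miR-17 heptamer, 16.9% of 887 with the miR-19 heptamer and 23.1% of 507 with the miR-92a heptamer were called lower. For the miR-18a heptamer alone the share was 11.9% of 636 genes, which is near the 13.2% of all genes. Genes with at least 2 miR-17 heptamers (273 genes) were lower in 31.5% of cases. Rlim, a ubiquitin ligase with 5 matches, fell from 144 ± 10.6 to 101 ± 4.73 CPM (-0.52 ± 0.08, adjusted p = 1.9e-05). S1pr1, also with 5 matches, had 1042 to 1514 CPM in wild-type and 651 to 951 CPM in T1792tg libraries (-0.71 ± 0.16, adjusted p = 0.0016). Atxn1, with 10 matches, had overlapping groups and a smaller change (-0.35 ± 0.12, adjusted p = 0.035), and it lost its call in 7 alternatives. Many matches therefore did not go with a large change in each gene. The naming rule for seed matches took only genes called lower. Outside that rule, Ikzf2, also with 5 matches, was called higher (0.98 ± 0.15, adjusted p = 1.1e-05). Bcl2l11, with 5 matches as well, was not called.

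**Figure D3:**
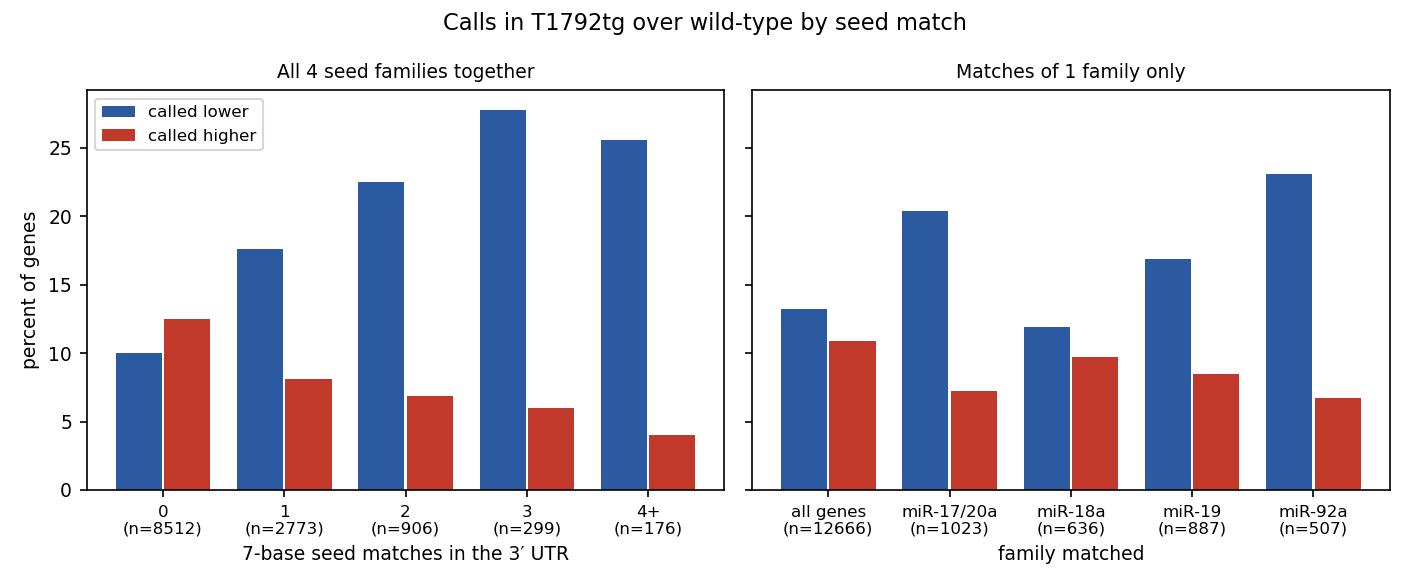
Percent of genes called lower (blue) and higher (red) in T1792tg cells, by the number of 7-base seed matches of any family (left) and for genes that match a single family (right), with the number of genes under each pair of bars. The lower share rises from 9.99% without a match to 27.8% with 3, and the miR-18a class (11.9%) sits near all genes (13.2%).

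Of 28 naive identity and quiescence genes, 13 were called lower, 2 higher and 13 not called, with a median of -0.281. The shares of all genes were 12.6% lower and 10.5% higher. Il7r had 457, 408, 462 and 553 CPM in wild-type and 292, 290, 237 and 270 CPM in T1792tg libraries (-0.79 ± 0.17, adjusted p = 0.00082). Lef1, a transcription factor of the T lineage with no seed match, had 599 to 627 CPM in wild-type and 348 to 439 CPM in T1792tg libraries (-0.63 ± 0.07, adjusted p = 1.2e-07). Actn1 (-0.59 ± 0.11), Klf2, which drives S1pr1 (-0.48 ± 0.16), and Foxp1, which holds T cells quiescent (-0.37 ± 0.08), fell as well. Other defining genes were not called: Tcf7 (-0.09 ± 0.07, adjusted p = 0.4) and Ccr7 (-0.36 ± 0.14, adjusted p = 0.063). Ccr9, a gut-homing receptor, was higher, at 10.5 to 14.7 CPM in wild-type and 25.1 to 34.3 CPM in T1792tg libraries (1.12 ± 0.16, adjusted p = 2.5e-06). The count of 13 lower genes was 8 without T1792tg library 3, 8 when the 8 libraries were fitted alone, and 7 in naive libraries with a term for sex. Foxo1 (-0.33 ± 0.09) was among those that lost their call without that library. The call of Klf2 was lost without T1792tg library 3 or 4 or wild-type library 1 or 4 (adjusted p up to 0.09).

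Of 38 genes of effector and memory cells, 21 were called higher, 4 lower and 13 not called, with a median of 0.596. Among all genes 10.5% were higher and 12.6% lower, so the lower share of this list was near that of all genes. The list's summed level was 1075 to 1172 CPM in wild-type and 1322 to 1534 CPM in T1792tg libraries. Eomes, a transcription factor of memory cells, had 8.23, 8.17, 9.29 and 8.13 CPM in wild-type and 17.6, 18.1, 29.7 and 26.6 CPM in T1792tg libraries (1.45 ± 0.19, adjusted p = 9e-07). Cxcr3, a receptor for inflammatory chemokines, had 2.1 to 2.6 CPM in wild-type and 2.94, 6.78, 7.25 and 8.37 CPM in T1792tg libraries (1.39 ± 0.28, adjusted p = 0.00039), with library 1 close to the wild-type range. Ly6c2, a memory-associated surface protein (1.28 ± 0.16), Bhlhe40, a factor of cytokine-producing cells (0.90 ± 0.15), Il2rb, a chain of the interleukin-2 receptor (0.59 ± 0.09), and Ccl5 (0.88 ± 0.20) rose. Klrg1, a marker of differentiated cells, had 0.988 ± 0.198 CPM in wild-type and 1.84, 4.01, 4.25 and 5.3 CPM in T1792tg libraries (1.97 ± 0.40, adjusted p = 0.00048). Gzmk, a granzyme, had counts in 1 of 4 wild-type libraries (0.0825 CPM) and in all T1792tg libraries (0.399, 0.455, 1.79 and 1.36 CPM). Cd44, the marker by which memory cells are usually told apart, was not called (37.5 ± 2.72 and 38.8 ± 3.18 CPM, adjusted p = 0.83). Prdm1, which encodes the effector factor Blimp-1, and Fasl were among those that fell (-0.91 ± 0.18 for Prdm1). In bulk libraries a different share of cells of a type and a different level per cell cannot be told apart. Of 20 regulatory T cell markers 7 were higher and 1 lower, with Foxp3 itself not called (21.7 ± 1.63 and 27.3 ± 4.38 CPM, adjusted p = 0.19). The part of memory, regulatory, NK or B cells in these changes was not tested.

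Of 28 costimulatory and inhibitory receptors 9 were higher and 4 lower, the latter near the 12.6% of all genes. Inhibitory receptors among those called higher were Pdcd1, Cd160 and Lag3. Pdcd1, which encodes PD-1, had 4.41 to 4.9 CPM in wild-type and 10.3 to 14.7 CPM in T1792tg libraries (1.41 ± 0.18, adjusted p = 6.6e-07), Cd160 rose by 1.54 ± 0.22 and Lag3 by 0.97 ± 0.16. Tigit, another inhibitory receptor, was not called, at 8.52 ± 1.95 CPM in wild-type and 8.28 ± 2.13 CPM in T1792tg libraries. The costimulator Icos fell from 177 ± 44.7 to 102 ± 17.9 CPM (-0.79 ± 0.13, adjusted p = 4e-05). Cd40lg, the ligand through which helper T cells license B cells, had 145 to 174 CPM in wild-type and 90.7 to 101 CPM in T1792tg libraries (-0.74 ± 0.11, adjusted p = 5.6e-06). Of 28 cytokine receptor genes 7 were higher and 7 lower, with 3 higher without T1792tg library 2, 4 without wild-type library 2 and 3 when the 8 libraries were fitted alone. Each count was 25% of the list, beside 10.5% higher and 12.6% lower of all genes. Il12rb1, a chain of the interleukin-12 receptor, went from 3.97 ± 0.358 to 10.4 ± 1.57 CPM (1.39 ± 0.18). Of 30 homing genes 6 were higher and 5 lower, with 3 lower without T1792tg library 4. The lower share of 16.7% was near that of all genes. Cxcr5, the follicle-homing receptor, rose from 11.5 ± 1.77 to 24.1 ± 5.27 CPM (1.06 ± 0.25), and Gpr183, which guides cells to the follicle border, fell from 460 ± 49.7 to 278 ± 30 CPM (-0.73 ± 0.09). The 13 B cell markers had a median of 0.588 with 0 called, and 6 called higher when the 8 libraries were fitted alone. The part of B cells in the Cxcr5 level was not tested.

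Of 26 genes listed as transcription factors of T cell activation 11 were lower and 5 higher, with 3 higher without wild-type library 3. Their median was -0.048, and 0.062 without wild-type library 2. Among all genes 12.6% were lower and 10.5% higher. Irf4, a factor whose level follows the strength of receptor signals, had 267, 463, 325 and 236 CPM in wild-type and 115, 156, 178 and 115 CPM in T1792tg libraries (-1.19 ± 0.16, adjusted p = 8.1e-07). Nr4a3 (-0.83 ± 0.18), Crem (-0.79 ± 0.14) and Myc (-0.46 ± 0.09) fell as well, while Ikzf2, known as Helios, rose from 25.9 ± 3.18 to 51.2 ± 8.2 CPM (0.98 ± 0.15). Of 26 NF-kB genes 11 were lower and 1 higher, with Traf5, a signalling adaptor, at -0.62 ± 0.08. The member called higher was Nfkbia, the inhibitor IκBα, at 347 to 424 CPM in wild-type and 481 to 520 CPM in T1792tg libraries (0.39 ± 0.06). The NF-kB count of lower genes was 7 without wild-type library 2, 7 when the 8 libraries were fitted alone and 6 in naive libraries with a term for sex. Of 18 genes that respond to handling stress, 3 were higher and 0 lower by edgeR (3 and 0 at an unadjusted p below 0.05 and by DESeq2), with 8 higher without wild-type library 4. Their summed level was 8959 to 10920 CPM in wild-type libraries 1 to 3, 19360 CPM in wild-type library 4 and 11260 to 19270 CPM in T1792tg libraries. Their median of 0.237 was 0.394 without wild-type library 4 and 0.039 without T1792tg library 3, and the part of handling in the activation and NF-kB genes was not tested. Socs3, an inhibitor of cytokine signalling, rose from 179 ± 28.4 to 341 ± 18.2 CPM (0.93 ± 0.14).

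Ribosome assembly and respiratory chain genes were read as lists, beside the 10.5% of all genes called higher and the 12.6% called lower. Of 28 ribosome biogenesis genes 17 were called lower and 0 higher by edgeR (21 and 0 at an unadjusted p below 0.05, 17 and 0 by DESeq2), with a median of -0.23. Tsr1, needed for small subunit maturation, had 111 to 141 CPM in wild-type and 71.6 to 97.2 CPM in T1792tg libraries (-0.53 ± 0.08), Polr1b, a subunit of RNA polymerase I, changed by -0.53 ± 0.08 and Nop58 by -0.44 ± 0.06. The count was 11 when the 8 libraries were fitted alone and 11 in naive libraries with a term for sex. Of 77 nuclear genes for subunits of oxidative phosphorylation 21 were higher, 1 lower and 55 not called, with a median of 0.224. Cyc1, cytochrome c1, had 72.8 to 83.7 CPM in wild-type and 93.8 to 99 CPM in T1792tg libraries (0.29 ± 0.06, adjusted p = 0.00061), and Uqcr11 changed by 0.67 ± 0.16. The count of 21 was 9 without wild-type library 2, 6 without wild-type library 3, 7 in naive libraries and 1 in naive libraries with a term for sex. Of 38 cell cycle genes 4 were higher and 4 lower, which is near the shares of all genes (10.5% and 12.6%), among them Mcm5, a helicase subunit, at 0.60 ± 0.09 and Cdk4 at 0.26 ± 0.08. The higher count was 2 without T1792tg library 2 or wild-type library 4, and Cdk4 lost its call when either was left out. The lipid desaturase gene Scd2 rose from 84.3 ± 6.32 to 160 ± 5.75 CPM (0.92 ± 0.15), in a sterol and fatty acid list with 3 higher and 6 lower of 27. The higher share of that list, 11.1%, was near the 10.5% of all genes. That list had 2 lower genes without wild-type library 2, 3 without T1792tg library 4 and 0 in naive libraries with a term for sex.

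Of 16 genes that make and use microRNAs 4 were lower and 1 higher, beside 12.6% and 10.5% of all genes. Drosha, which cuts primary microRNA transcripts, fell from 68.3 ± 4.51 to 50.9 ± 5.49 CPM (-0.43 ± 0.07, adjusted p = 5.9e-05), Ago1, an Argonaute, from 111 ± 3.31 to 89.8 ± 7.71 CPM (-0.30 ± 0.08), and Dicer1, which cuts the hairpins, from 177 ± 7.31 to 149 ± 4.78 CPM (-0.25 ± 0.08, adjusted p = 0.026). The list had 2 lower genes without wild-type library 3 and 1 in naive libraries with a term for sex, and Dicer1 was not called without that library or without T1792tg library 1.

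Of 42 type I interferon-stimulated genes 15 were higher, 1 lower and 26 not called, with a median of 0.339. Across all genes 10.5% were higher and 12.6% lower. Of 18 interferon-inducible GTPases 7 were higher, 0 lower and 11 not called (8 and 0 at an unadjusted p below 0.05 by edgeR, 7 and 0 by DESeq2). Oas1a, a sensor of double-stranded RNA, had 10.4, 10.1, 9.83 and 9.76 CPM in wild-type and 25, 19.7, 23.4 and 24 CPM in T1792tg libraries (1.20 ± 0.21, adjusted p = 0.0001). Mx1, an antiviral GTPase, rose by 1.38 ± 0.29, Usp18, which removes ISG15, by 1.05 ± 0.22, Ifi27l2a by 0.75 ± 0.13, Iigp1 by 1.25 ± 0.25 and Gbp2 by 0.68 ± 0.16. The type I count was 10 with a term for sex in the fit and 5 in naive libraries with that term. The type I median was 0.146 with a term for sex in the fit, 0.215 without wild-type library 1 and 0.226 without T1792tg library 1. For the GTPases a term for sex gave 5 higher and a median of 0.083, against 0.224 in the main fit.

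**Figure D4:**
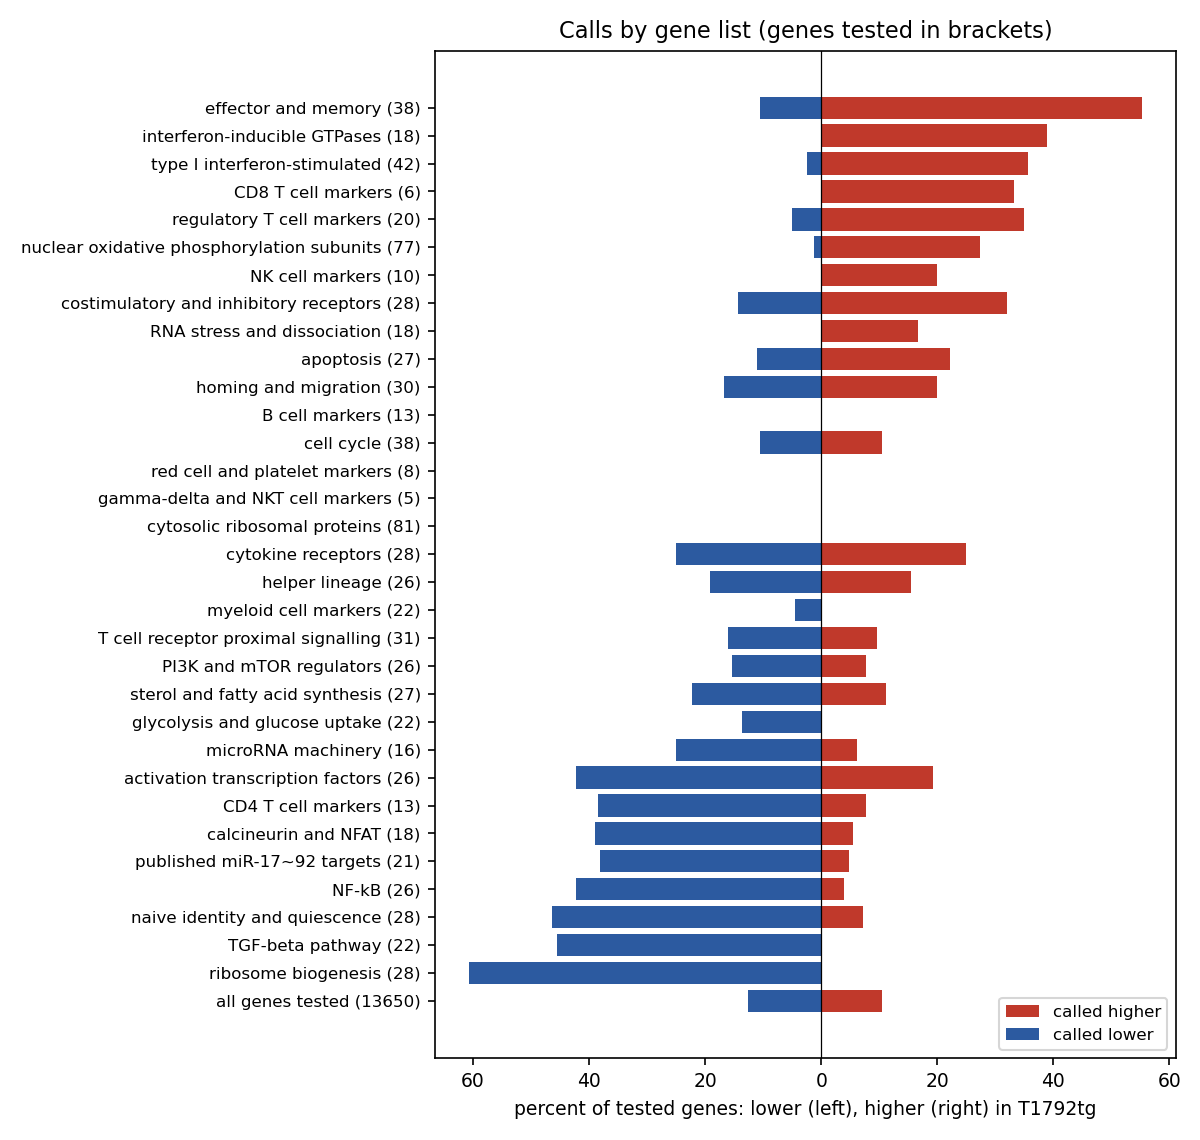
Percent of the tested genes of each list called lower (left, blue) and higher (right, red) in T1792tg over wild-type naive cells, with the number tested in brackets and all genes at the bottom. Ribosome biogenesis (17 of 28 lower) and effector and memory genes (21 of 38 higher) have the longest bars.

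The same transgene in mice labelled CD28-/- gave a comparison with separate mice. Rescue over CD28ko-labelled naive cells had 2288 calls of 13650 genes (16.8%), 1070 higher (7.84%) and 1218 lower (8.92%). CD28ko-labelled library 1 and rescue library 2 stood apart from the other libraries of their groups, and the count was 3034 without the first, 1600 without the second and 1992 without either. Of the calls in T1792tg over wild-type, 1353 were called in the same direction in rescue over CD28ko-labelled cells (42.8% of the first set, 59.1% of the second) and 4 in the opposite direction, namely Mta1, Rara, H1f1 and Smarcd1. All 4 lost their call in T1792tg over wild-type without T1792tg library 3. Across genes the log2 fold changes had Pearson r = 0.446 and Spearman rho = 0.514. The genes share libraries within each contrast and are not independent. Signs matched in 90.5% of the genes called in T1792tg over wild-type and in 70.7% of all genes.

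Over the genes called in T1792tg over wild-type, the median ratio of the rescue value to the T1792tg value was 0.674. Mir17 changed by 4.34, Gh by 7.36, Adgrg5 by 3.27, Ier5l by 3.26 and H2-Q6 by 2.12 on the log2 scale in rescue over CD28ko-labelled cells. Among the decreases, Rcan3 changed by -0.57 (adjusted p = 1e-05), Bcl2 by -0.55, Fasl by -1.17, Lef1 by -0.46 and Nacc2 by -0.84, against -1.96 in T1792tg over wild-type. Other values were closer to 0 in rescue over CD28ko-labelled cells: the log2 fold change was 0.49 for Gpr55, -0.11 for Klrg1, -0.51 for Tnfsf11 and 0.05 for Cxcr5, none of them called there. In this contrast 7.84% of all genes were higher and 8.92% lower. Ribosome biogenesis had 17 lower of 28 here too, 14 of them the same genes, and the naive identity list had 9 lower and 2 higher of 28. The effector and memory list had 7 higher and 4 lower of 38, the type I interferon list 2 higher and 1 lower of 42, and the TGF-beta list 3 lower of 22. Genes without a seed match were lower in 7.03% and genes with 3 matches in 20.1% of cases.

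The difference between the backgrounds was tested for each gene. It was called in 2 genes (0.0147%), while 1405 (10.3%) had an unadjusted p below 0.05. Irf4 changed by -1.19 ± 0.16 in T1792tg over wild-type and had a value of 0.25 in rescue over CD28ko-labelled (difference -1.44 ± 0.23, adjusted p = 0.002). Its mean level was 323 CPM in wild-type, 141 CPM in T1792tg, 161 CPM in CD28ko-labelled and 191 CPM in rescue cells, so the wild-type group was the high one. Lif, a cytokine of the interleukin-6 family, had 9.26, 7.05, 1.96 and 5.68 CPM in the same order, with log2 fold changes of -0.39 ± 0.17 and 1.52 (difference -1.92 ± 0.28, adjusted p = 0.00085). Neither was called when only these 4 groups were fitted (0 genes by edgeR, 783 at an unadjusted p below 0.05). DESeq2, fitted to all 38 libraries, called 51 genes, beside the 2 of edgeR on the same libraries. For the type I interferon list the contrast between 15 and 2 higher genes was not itself shown to differ, since none of its members was called for the difference (0.0147% of all genes).

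**Figure D5:**
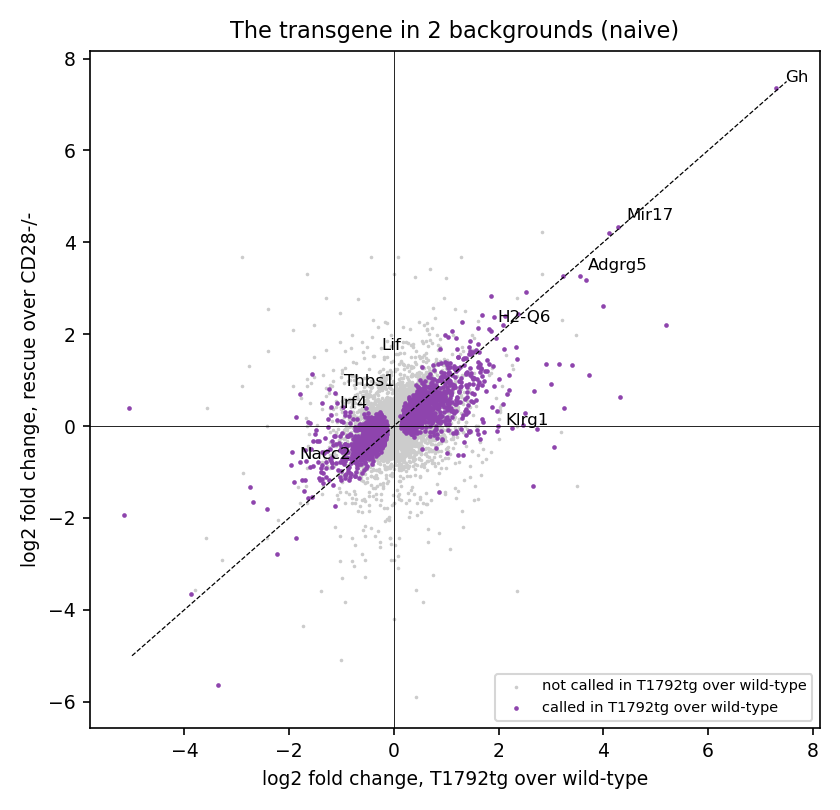
Log2 fold change of rescue over CD28ko-labelled (CD28-/- on the axis) against that of T1792tg over wild-type naive cells, 1 point per gene, with genes called in the latter in purple and the dashed line marking equal values. Mir17, Gh and Adgrg5 lie near the line, while Irf4 (-1.19 and 0.25) and Lif (-0.39 and 1.52) lie off it.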

How the data were processed

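The authors deposited whole-number read counts per gene for 38 libraries, without normalization. Per the labels' protocols, RNA was extracted with TRI Reagent and a column kit, and stranded TruSeq libraries were read as single ends of 76 nt. The genome build was mm10 and the tools included STAR 2.5.2a and edgeR 3.24.3, per the submitters' processing notes. No source used here names the counting tool, its annotation or its strand setting, which are therefore not given.

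Symbols and coordinates came from a RefSeq table (GRCm38.p6). The filterByExpr step of edgeR 4.0.16 (R 4.3.3) kept 13650 genes, and libraries were scaled by TMM. A quasi-likelihood model with a coefficient for each of 10 groups was fitted to all 38 libraries, with two-sided tests adjusted by Benjamini-Hochberg over all genes, called below 0.05. The SE is the log2 fold change divided by the square root of F. Lists were described by counts and medians without a set test. On counts simulated with these libraries' means, changes were put only into genes of at least 5 CPM in wild-type. Of these, 85 of 100 genes changed 1.5-fold and 98 of 100 changed 2-fold were recovered, with 15 unchanged genes called. Recovery in rows with fewer counts was not tested, and the simulation held no difference of sex.

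Alternatives were DESeq2 size factors, DESeq2 1.42.0, other filters on low counts, fewer groups, a replicate block, a term for sex, a stricter threshold, other seed matches and leaving out each library. The naive-only fit with a term for sex and the fit without CD28ko-labelled library 1 and rescue library 2 were added after seeing the data.

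Members and lists were chosen with earlier results of these data known. Named genes were the engineered loci, the 15 largest increases and 15 largest decreases among called genes of at least 5 CPM without overlap, up to 6 called members per list by p, and the 10 lower genes with the most seed matches. The ranking by size left out unnamed gene models, antigen receptor segments and listed sex-linked genes. Bcl2l11, Lif, the H2 genes other than H2-Q6, the neighbours of Adgrg5 and any other gene outside that rule were chosen after their values were seen.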

Additional observations from a re-analysis of the deposited data

Results flagged for a closer look

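A library far from the other 3 of its group, by its gap over the group's whole range, was found in 16 of 244 groups tested (6.56%), where chance gives about 1 in 20. In wild-type libraries these ratios were 0.943 for Mir20a (library 3, 0.3765 CPM), 0.910 for Itga7 (library 3, 10.63 CPM), 0.866 for Rgmb (library 4, 23.64 CPM) and 0.902 for E2f2 (library 4, 23.64 CPM). They were 0.920 for Eomes (library 3, 9.287 CPM), 1 for Gzmk (library 2, 0.0825 CPM) and 0.950 for Iigp1 (library 4, 34.52 CPM). In T1792tg libraries they were 0.937 for Bmp7 (library 2, 8.43 CPM), 0.858 for Myo10 (library 3, 11.37 CPM), 0.839 for Map3k9 (library 2, 2.975 CPM), 0.844 for Il12rb1 (library 4, 12.72 CPM) and 0.970 for Dicer1 (library 1, 142.2 CPM). Further ratios in T1792tg libraries were 0.899 for Ccr7 (library 2, 1482 CPM), 0.853 for Cd3e (library 2, 373.1 CPM), 0.856 for Dok4 (library 4, 3.03 CPM) and 0.895 for H2-K1 (library 3, 5864 CPM). In the main fit the transgene contrast differed between the 2 backgrounds for Irf4 (difference -1.442 on the log2 scale) and Lif (-1.917), by edgeR's test of the difference itself. Both calls were lost with only the groups compared and in naive libraries with a term for sex. Irf4 also lost its call in naive libraries without that term. The edgeR adjusted p reached 0.6 for Irf4 and 0.12 for Lif.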

How the results depend on the processing

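Of 108 named genes called in T1792tg over wild-type, 93 were called in every refit that tested them and 0 reversed. The other 15 lost their call in at least 1 (Itga7, E2f1, E2f2, Dicer1, Ago1, Uqcr11, Foxo1, Atxn1, Cdk4, H1f1, Klf2, Mta1, Rara, Smarcd1 and Thbs1). Some rows with few counts were absent from a part of the refits, as Gzmk, tested in 12 where Mir17hg was tested in 17. At an adjusted p below 0.01, 9 of the 108 were not called. Calls in T1792tg over wild-type, in rescue over CD28ko-labelled and for the difference were 1913, 802 and 0 with only the groups compared, 1563, 1467 and 0 in naive libraries with a term for sex, and 1764, 1163 and 2 at an adjusted p below 0.01. The difference had 783 and 663 genes at an unadjusted p below 0.05 in the first 2 of these fits by edgeR. It had 9 calls with a filter at a mean of 5 CPM, 4 with a replicate block, 51 by DESeq2 and 36 without CD28ko-labelled library 1 and rescue library 2. Leaving out 1 library gave 2415 to 3033, 1600 to 3034 and 2 to 77 calls. For the difference the count was 77 without T1792tg library 1, 51 without rescue library 2, 22 without wild-type library 4, 8 without CD28ko-labelled library 1, 7 without T1792tg library 2, and 4 without T1792tg library 4 or CD28ko-labelled library 2. Same-number correlations of deviations from the group mean were 0.068 to 0.177 in T1792tg and wild-type libraries. Different-number ones ran from -0.295 to 0.197 there. In rescue and CD28ko-labelled libraries same-number values were -0.278, -0.309 and 0.199, and different-number ones ran from -0.281 to 0.442. Such correlations cannot exclude a shared day or batch, so whether replicate numbers pair the samples was not settled. A replicate block gave 3100 and 2206 calls for the first 2 contrasts. The next shares are of genes with at least 1 match of a family, whether or not they matched another family. Shares called lower at a mean of at least 5 CPM were 27.1% (miR-17 family), 20.4% (miR-18a), 25.2% (miR-19), 30.5% (miR-92a) and 12.5% (no match). All genes with a UTR had 16.6% there. Genes that matched a single family had 24.8% (miR-17 family), 14.7% (miR-18a), 20.8% (miR-19) and 29.6% (miR-92a). With at least 1 match of 8 bases the shares were 23.3% (miR-17 family), 17.3% (miR-18a), 23.6% (miR-19), 28.4% (miR-92a) and 11.6% (no match). All genes had 13.2% there, and genes with an 8-base match of miR-18a alone 16.1%. In UTRs between the quartiles of length they were 23.9% (miR-17 family), 14.6% (miR-18a), 20.4% (miR-19), 28.7% (miR-92a) and 10.9% (no match), beside 13.9% of all genes. Depth limits rows with few counts, such as Gzmk and the precursors.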
